A study of Homo sapiens with 6 samples.

Results

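The interleukin 6 (IL6) family of cytokines, its receptors and its signalling genes were followed in PC-3 cells that overexpress BHLHE22. The 9 genes were chosen by name, by a rule that holds no measured value, though earlier results of these data were known: the ligands IL6, LIF and IL11, the receptor genes IL6R, IL6ST, LIFR and OSMR, the transcription factor gene STAT3 and the feedback inhibitor gene SOCS3. All 9 were found among the 58302 genes of the deposited table. PC-3 is an established human prostate cancer line from a bone metastasis. One set of cells carried a lentivirus for overexpression of BHLHE22, which encodes a basic helix-loop-helix transcription factor, and the other a blank lentiviral vector, with 3 RNA-seq libraries each. The series is about BHLHE22 and myeloid-derived suppressor cells in bone metastases, and the comparison asks which RNAs differ when BHLHE22 is overexpressed. The sources used here do not give the transgene's promoter, the number of clones or whether the libraries came from separate cultures. The p-values therefore measure the spread between the libraries of a group, and that spread may be technical.

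IL6, LIF and IL11 are secreted ligands that signal through a shared receptor chain, gp130, encoded by IL6ST. IL6 needs the receptor chain IL6R, LIF pairs gp130 with the chain encoded by LIFR, and OSMR encodes a chain used by the related ligand oncostatin M. The receptors activate JAK kinases, these phosphorylate STAT3, and STAT3 raises the transcription of SOCS3, whose product shuts the receptor complex down. PC-3 has been described in earlier work as a line without STAT3.

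BHLHE22 had 98, 92 and 133 counts in the BHLHE22 libraries, against 1 count in each vector library. Library totals ranged from 12186723 to 15949537 counts. Markers of the labelled cells and of other cells were read first, in CPM (counts scaled to a common library total). The summed level of 5 epithelial markers was 1117 to 1323 CPM in BHLHE22 libraries and 1167 to 1302 CPM in vector libraries. KRT19 made up most of it, with means of 852 CPM in BHLHE22 and 803 CPM in vector cells. Of the 5, 1 was called higher and 2 lower (edgeR quasi-likelihood, adjusted p under 0.05), so the similar sums hide opposite changes. Over all tested genes, 25.1% were called higher and 24.3% lower. Of 10 blood cell markers, 4 (TYROBP, HBB, CD3E and MS4A1) had no count in any library, and the summed level was 1.00 to 1.92 CPM in BHLHE22 cells and 3.25 to 3.87 CPM in vector cells. The summed level of 9 fibroblast and endothelial markers was 69.5 to 78.9 CPM in BHLHE22 cells and 120 to 139 CPM in vector cells. Each of the 9 had a count in some library, and of the 4 tested 1 was called higher and 3 lower. That of 6 prostate luminal markers was 64.0 to 75.8 CPM in BHLHE22 cells and 143 to 186 CPM in vector cells. Of these, KLK3 had no count in any library. The part of these differences in the results was not tested.

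A stretch upstream of a RefSeq start is shown for IL6, which changed most among the 9 genes. Others are shown for LIFR, the only member called lower, and for SOCS3, a classical STAT3 target. Each stretch ends upstream of a RefSeq transcript start (GRCh38.p14), reads 5′ to 3′ on the gene's strand and holds no exon of its own gene in GENCODE release 29. Capitals mark matches, on either strand, to the E-box CANNTG bound by basic helix-loop-helix factors, or to the STAT motif TTCNNNGAA.
IL6 (chr7:22726950-22727146, plus strand): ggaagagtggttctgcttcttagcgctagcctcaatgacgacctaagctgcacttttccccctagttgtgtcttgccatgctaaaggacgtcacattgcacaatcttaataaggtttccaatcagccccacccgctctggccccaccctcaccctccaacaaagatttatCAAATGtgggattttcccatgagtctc
LIFR (chr5:38595406-38595655, minus strand): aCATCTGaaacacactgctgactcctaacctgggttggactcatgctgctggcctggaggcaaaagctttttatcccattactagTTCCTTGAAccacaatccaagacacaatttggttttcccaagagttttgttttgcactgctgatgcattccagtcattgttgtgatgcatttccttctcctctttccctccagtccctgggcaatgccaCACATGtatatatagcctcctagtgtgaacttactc
SOCS3 (chr17:78360926-78361175, minus strand): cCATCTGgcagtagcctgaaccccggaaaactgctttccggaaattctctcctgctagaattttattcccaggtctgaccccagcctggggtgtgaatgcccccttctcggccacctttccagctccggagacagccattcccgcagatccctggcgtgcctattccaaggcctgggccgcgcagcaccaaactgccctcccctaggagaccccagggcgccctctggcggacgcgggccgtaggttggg

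The IL6 stretch holds an E-box 80 bases upstream of the start. Over the 250 bases upstream of 35116 RefSeq starts, 61.8% held the E-box and 6.57% the STAT motif. Of the 9 members 8 had such a window, with more than 1 start for LIFR and SOCS3, whose other windows are not printed. The printed LIFR window lies inside the LIFR locus (38474963 to 38608354), and the LIFR window at 38556647 to 38556896 held neither motif. The E-box occurred in 7 of the 11 member windows, close to the share over all starts. These windows belong to 5 members (IL6, IL6R, IL6ST, LIFR and SOCS3). The STAT motif occurred in windows of LIFR alone. For SOCS3, the printed window lies upstream of the locus end at 78360077, and the other (78359668 to 78359917) lies inside the locus. The bases just upstream of that end were not searched, so a STAT motif there is not excluded. These are matches of letters and do not show that a factor binds there.

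IL6 RNA was 12.7-fold higher in BHLHE22 cells, LIF was 1.43-fold higher, and the receptor genes moved little and in different directions, while STAT3 was close to undetected in both groups. Of the 8 members with enough counts to test, 5 were called higher (IL6, LIF, IL6R, OSMR and SOCS3) and 1 lower (LIFR) at an adjusted p under 0.05. Among all 15945 tested genes 49.4% were called, 25.1% higher and 24.3% lower, so 5 of 8 higher calls stand beside a share of about 1 gene in 4. The levels of 7 of the 8 tested members did not overlap between the groups, where 60.5% of all tested genes did not. The median log2 fold change of the 8 members was 0.35, and that of all tested genes 0.00.

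**Figure D1:**
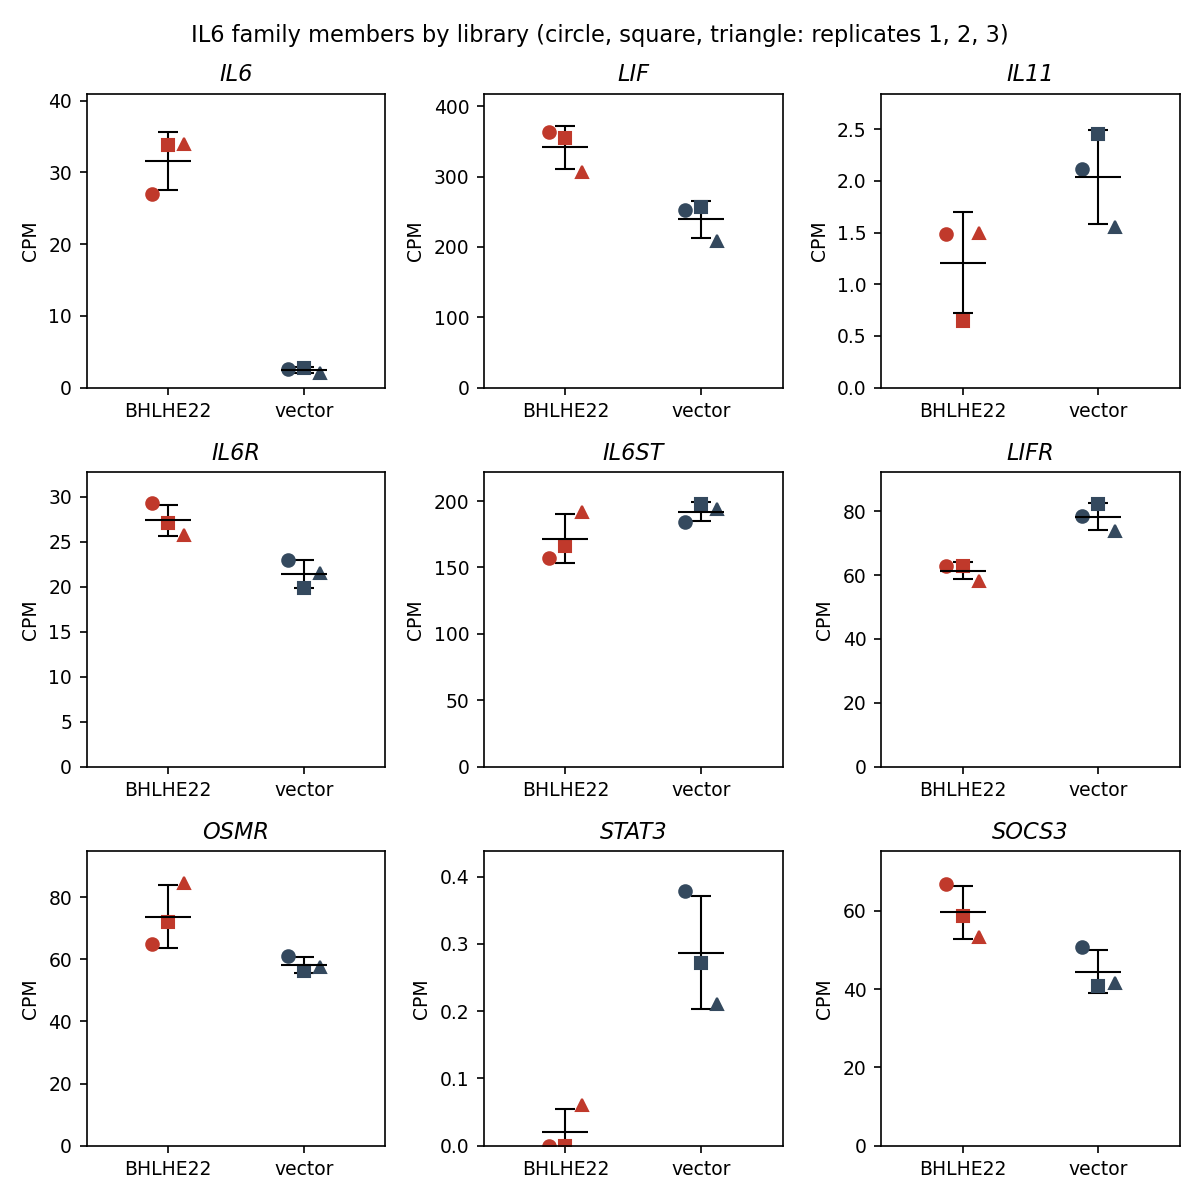
Levels of the 9 members in each library, in CPM scaled by TMM (vertical axes from 0), with BHLHE22 libraries left and vector libraries right; symbols are libraries, the horizontal bar is the mean and the error bar 1 SD (n = 3). IL6 lies between 26.9 and 34.0 CPM in BHLHE22 and between 2.04 and 2.72 CPM in vector libraries, and STAT3 stays under 0.4 CPM in every library.

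Among the ligands, IL6 (ENSG00000136244, chromosome 7, 22725884 to 22732002), a cytokine of inflammation and myeloid differentiation, had 26.9, 33.8 and 34.0 CPM in BHLHE22 libraries, against 2.65, 2.72 and 2.04 CPM in vector libraries. Every BHLHE22 library lay above every vector library, and the lowest BHLHE22 value came from 345 counts. The mean was 31.6 ± 4.0 CPM in BHLHE22 cells and 2.47 ± 0.37 CPM in vector cells (SD, n = 3 each). Its log2 fold change was 3.67 (SE 0.17, edgeR quasi-likelihood, Benjamini-Hochberg adjusted p = 1.72e-05), with a 95% interval of 3.27 to 4.07. Only 0.464% of all tested genes had a change of that size or more in either direction, and IL6 ranked 32 among the 3996 genes called higher.

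The 3 genes whose centred log2 levels over the 6 libraries were most like those of IL6 were MX2, IFIT3 and MX1, all known as interferon-stimulated genes. The root mean square difference from IL6 was 0.128, 0.165 and 0.191 on the log2 CPM scale. MX2 averaged 46.2 CPM in BHLHE22 cells and 3.69 CPM in vector cells, and its log2 fold change was 3.64. This likeness is carried by the difference between the groups that these genes share.

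LIF (ENSG00000128342, chromosome 22, 30240447 to 30246851), a cytokine known for maintaining stem cells and for bone and muscle effects, was the most abundant member. It had 363, 355 and 307 CPM in BHLHE22 libraries, against 252, 256 and 209 CPM in vector libraries, with no overlap. The mean was 341 ± 30 CPM in BHLHE22 cells and 239 ± 26 CPM in vector cells (SD, n = 3 each). The log2 fold change of LIF was 0.51 (SE 0.11, adjusted p = 0.00598, edgeR quasi-likelihood), with a 95% interval of 0.26 to 0.76. In bulk RNA, a change in the RNA of every cell and a change in the number of cells that make it cannot be told apart.

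IL11 (ENSG00000095752, chromosome 19, 55364389 to 55370463), a cytokine linked to osteoclast formation in bone metastasis, was low in both groups. It had 19, 9 and 25 counts in BHLHE22 libraries, against 28, 36 and 22 counts in vector libraries. The mean was 1.21 ± 0.49 CPM in BHLHE22 cells and 2.04 ± 0.45 CPM in vector cells (SD, n = 3 each). Once scaled, the highest BHLHE22 library lay just under the lowest vector library, at 1.55 CPM. The difference was not called (log2 fold change -0.74 by edgeR quasi-likelihood, adjusted p = 0.109), and its 95% interval of -1.54 to 0.06 leaves room for a fall of more than 2-fold as well as for no change.

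Among the receptors, IL6R (ENSG00000160712, chromosome 1, 154405193 to 154469450), which encodes the IL6-binding chain, had 29.3, 27.1 and 25.8 CPM in BHLHE22 libraries, against 23.0, 19.9 and 21.5 CPM in vector libraries. The groups did not overlap. The log2 fold change of IL6R was 0.35 (SE 0.11, adjusted p = 0.0303, edgeR quasi-likelihood). The call ended without BHLHE22 replicate 1 (adjusted p = 0.0797) or 2 (0.0756) or vector replicate 2 (0.0859) or 3 (0.0539).

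IL6ST (ENSG00000134352, chromosome 5, 55935095 to 55994993), the gene of the shared chain gp130, was the receptor gene with the most reads and did not pass the test. It had 157, 166 and 192 CPM in BHLHE22 libraries, against 184, 198 and 194 CPM in vector libraries, and the groups overlapped through BHLHE22 replicate 3. Its log2 fold change was -0.16 (adjusted p = 0.189, edgeR quasi-likelihood), and its 95% interval was -0.38 to 0.06. A processed pseudogene on the opposite strand inside the IL6ST locus, AC016596.1, had 2282 counts in BHLHE22 and 2391 in vector libraries. Whether reads of IL6ST and AC016596.1 were separated by strand is not given in the sources used here, so the IL6ST level is uncertain.

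LIFR and OSMR lie near each other on the short arm of chromosome 5 and encode related chains that each pair with gp130. LIFR (ENSG00000113594, 38474963 to 38608354) had 62.8, 63.0 and 58.3 CPM in BHLHE22 libraries, against 78.7, 82.4 and 73.8 CPM in vector libraries. Every BHLHE22 library lay below every vector library. For LIFR the log2 fold change was -0.35 (SE 0.08, adjusted p = 0.0103, edgeR quasi-likelihood), a level 1.28-fold higher in vector cells. With unscaled library sizes, which shifted the median log2 fold change of all genes by 0.15, the LIFR value was -0.20 and no longer called (adjusted p = 0.0661).

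OSMR (ENSG00000145623, 38845858 to 38945596) had 64.8, 71.8 and 84.6 CPM in BHLHE22 libraries, against 61.1, 56.1 and 57.6 CPM in vector libraries. The groups did not overlap, but BHLHE22 replicate 1 lay close to vector replicate 1. The log2 fold change of OSMR was 0.34 (SE 0.11, adjusted p = 0.0370, edgeR quasi-likelihood). This call was the least stable of the members: it ended without BHLHE22 replicate 2 (adjusted p = 0.0743) or 3 (0.0932) and without vector replicate 1 (0.0643), 2 (0.0919) or 3 (0.0738). With the replicate number as a block the adjusted p was 0.0604.

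The OSMR locus overlaps that of RICTOR, a gene of the mTORC2 kinase complex on the opposite strand, by 7678 bases. In that stretch lie 666 of the 7174 exon bases of OSMR (9.28%). RICTOR, chosen after its values were seen, had 157, 123 and 91.9 CPM in BHLHE22 libraries, against 356, 391 and 271 CPM in vector libraries, with a log2 fold change of -1.45 (edgeR quasi-likelihood, adjusted p = 0.00245). The RNA of RICTOR thus moved opposite to that of OSMR, and the part of shared reads in the OSMR value was not tested.

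The ratio of OSMR to LIFR within a library does not depend on library scaling. In the deposited FPKM, it was 1.95, 2.15 and 2.74 in BHLHE22 libraries, against 1.47, 1.29 and 1.47 in vector libraries. The ratio of IL6ST to IL6R was 1.96, 2.25 and 2.73 in BHLHE22 libraries, against 2.93, 3.65 and 3.31 in vector libraries. Neither ratio overlapped between the groups. Each gave p = 0.1 in a 2-sided exact permutation test (0.1 also when adjusted over the 2 ratios), which is the smallest value that 3 libraries against 3 allow. Both ratios were chosen after the values were seen.

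STAT3 (ENSG00000168610, chromosome 17, 42313324 to 42388568), the transcription factor that carries the signal of all these receptors, was close to undetected in PC-3 cells of both groups. It had 0, 0 and 1 counts in BHLHE22 libraries, against 5, 4 and 3 counts in vector libraries. A count of 0 allows up to 0.234 CPM in BHLHE22 replicate 1 and 0.215 CPM in replicate 2, by a floor of 3 counts that covers counting error only. STAT3 did not pass the filter on low counts and was not tested. The vector count was 12.4 times that in BHLHE22 cells after scaling, with an exact 95% counting interval of 1.83 to 529, and a fit without the filter gave an adjusted p of 0.0353 (edgeR quasi-likelihood).

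The genes next to STAT3 were close to undetected as well. STAT3 lay in a run of 13 protein-coding genes, from DHX58 to ATP6V0A1 on chromosome 17 (42101404 to 42522611, 421 kb), in which every gene averaged under 0.5 CPM in both groups. The run includes STAT5A, with 0 counts in all libraries, STAT5B, with 0 counts in BHLHE22 and 2 in vector libraries, the acetyltransferase gene KAT2A, with 0 counts in BHLHE22 and 3 in vector libraries, and the endosome gene RAB5C, with 0 counts in BHLHE22 and 4 in vector libraries. KAT2A and RAB5C are expressed in most human cell types. Outside the run but within 500 kb of STAT3, 25 of 32 protein-coding genes reached 1 CPM in both groups. The nearest of these after ATP6V0A1 is the lysosomal enzyme gene NAGLU, which averaged 6.07 ± 0.46 CPM in BHLHE22 cells and 7.34 ± 1.18 CPM in vector cells (SD, n = 3 each).

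Over the run without STAT3, the libraries held 2, 5 and 6 counts in BHLHE22 cells, against 4, 17 and 5 counts in vector cells. The summed counts of the neighbours thus overlapped between the groups, while those of STAT3 did not. Like KAT2A, RAB5C and STAT5B, CAVIN1 and GHDC had counts in vector libraries only (6 and 3). In the other direction, ATP6V0A1 had 9 counts in BHLHE22 and 6 in vector libraries, and KCNH4 2 and 0. A lower count in BHLHE22 libraries was thus not particular to STAT3. Both groups carried the same gap, and a lost stretch of DNA and a silent one cannot be told apart from RNA counts. The run was outlined after the values were seen.

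**Figure D2:**
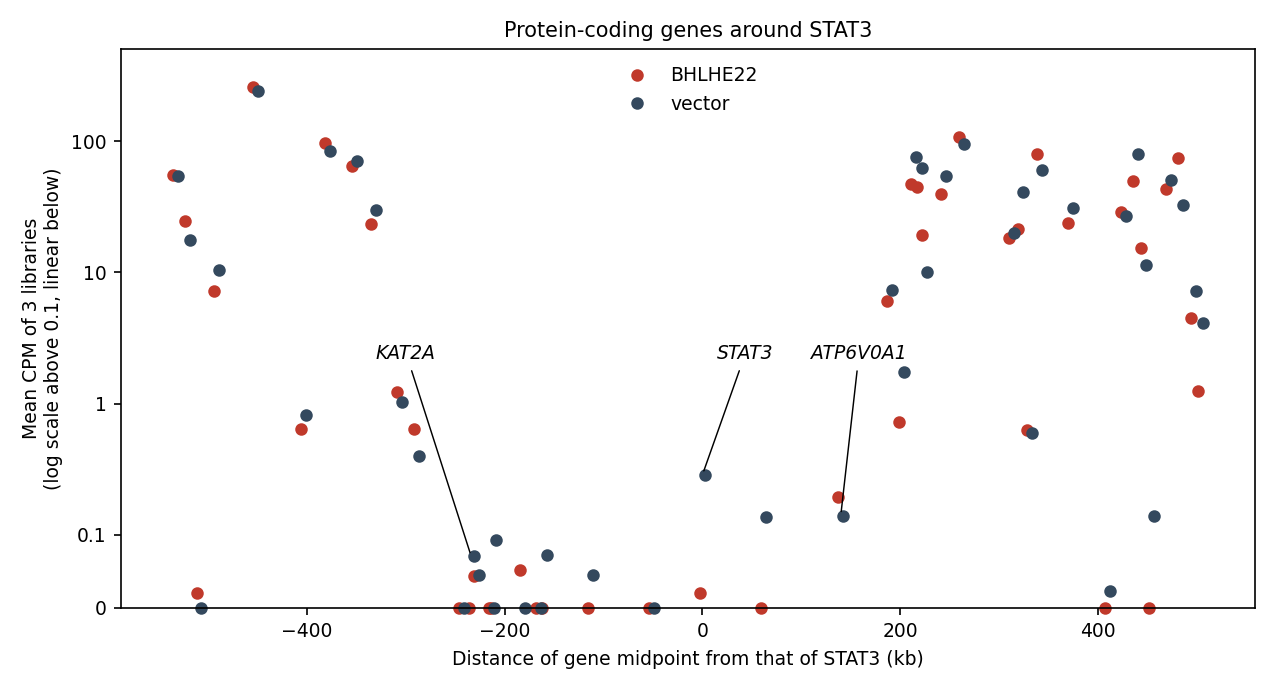
Mean level of each protein-coding gene within 500 kb of STAT3 (vertical axis in CPM, log scale above 0.1 and linear below) against the distance of its midpoint from that of STAT3 in kb, for BHLHE22 and vector cells (n = 3 each). A run of 13 genes, from DHX58 left of KAT2A to ATP6V0A1, lies under 0.5 CPM in both groups, and most genes on either side lie above 1 CPM.

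SOCS3 (ENSG00000184557, chromosome 17, 78356778 to 78360077), whose product binds gp130 and JAK kinases and is a known feedback inhibitor of IL6 signalling, was well expressed in both groups. It had 67.0, 58.6 and 53.5 CPM in BHLHE22 libraries, against 50.8, 40.9 and 41.7 CPM in vector libraries. The groups did not overlap, but BHLHE22 replicate 3 and vector replicate 1 lay close together. For SOCS3 the log2 fold change was 0.42 (SE 0.13, adjusted p = 0.0250, edgeR quasi-likelihood). The call ended without BHLHE22 replicate 1 (adjusted p = 0.0682) or 2 (0.0562) or vector replicate 2 (0.0728) or 3 (0.0653). The genes most like SOCS3 over the 6 libraries were TSPYL4, GIN1 and ZNF717, with root mean square differences of 0.0583, 0.0605 and 0.0677 on the log2 CPM scale.

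To compare levels between genes, CPM were divided by the length of the longest principal transcript of each gene in GENCODE, in CPM per kilobase. In BHLHE22 cells LIF led with 86.0, followed by SOCS3 with 21.8, IL6 with 20.7, IL6ST with 19.0, OSMR with 13.3, LIFR with 6.08, IL6R with 4.63, IL11 with 0.530 and STAT3 with 0.00396 CPM per kilobase. In vector cells the level of LIF was 60.3, that of IL6ST 21.2, SOCS3 16.3, OSMR 10.5, LIFR 7.76, IL6R 3.63, IL6 1.62, IL11 0.894 and STAT3 0.0569 CPM per kilobase. IL6 thus stood beside IL6ST, the highest receptor gene, in BHLHE22 cells and below all 4 receptor genes in vector cells. The libraries of SOCS3, IL6 and IL6ST overlapped in BHLHE22 cells, so their order there is not resolved.

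The deposited FPKM give a partly different order, because the gene lengths they imply were 1.13 times (SOCS3) to 3.21 times (IL6) as long as that transcript. In FPKM, IL6 and IL6ST averaged 6.76 and 6.73 in BHLHE22 cells, below OSMR with 10.1. In vector cells IL6 averaged 0.477 FPKM and overlapped with IL11 at 0.532 FPKM. LIF was highest and STAT3 lowest in both groups on both scales.

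**Figure D3:**
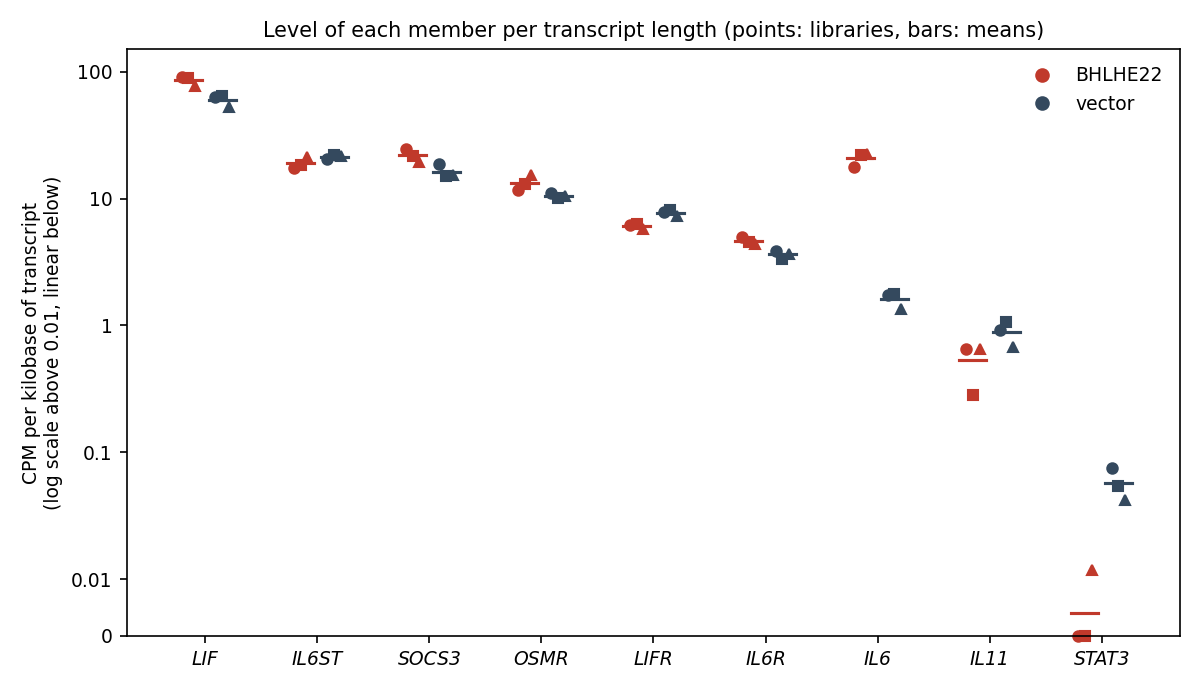
Level of each member in CPM per kilobase of its longest principal transcript (vertical axis, log scale above 0.01 and linear below), with BHLHE22 libraries left of vector libraries for each gene, points for libraries and bars for means (n = 3 each). IL6 stands at 20.7 in BHLHE22 cells, beside IL6ST, and at 1.62 in vector cells, below the receptor genes, and STAT3 lies at the bottom in both groups.

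Other genes of the pathway were called in both directions. Of 37 other genes of the pathway, 30 were tested: 5 were called higher, 8 lower and 17 neither. That is 16.7% higher and 43.3% called, beside 25.1% higher, 24.3% lower and 49.4% called of all tested genes. With 30 genes, these counts are not read as a result about the pathway. Their median log2 fold change was -0.18.

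Of the other ligands, CNTF, which encodes ciliary neurotrophic factor, fell to 1.04 ± 0.40 CPM in BHLHE22 cells, against 3.60 ± 1.00 CPM in vector cells (log2 fold change -1.81 by edgeR quasi-likelihood, adjusted p = 0.00367). CNTF had 15, 19 and 10 counts in BHLHE22 libraries, against 40, 70 and 43 counts in vector libraries. It passed the low-count filter only with the vector libraries, where it is high, so its call is not read as a result. CLCF1, another ligand of the CNTF receptor, fell to 20.6 ± 2.3 CPM in BHLHE22 cells, against 35.0 ± 7.2 CPM in vector cells. OSM, the gene of the ligand of OSMR, was not tested. It had 0, 1 and 0 counts in BHLHE22 libraries, against 0, 11 and 3 counts in vector libraries, so the groups overlapped and vector replicate 2 held most of the counts. CTF1 and EBI3 were tested and not called.

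Of the other receptor genes, IL27RA, a receptor chain of interleukin 27, fell to 14.0 ± 1.8 CPM in BHLHE22 cells, against 30.1 ± 4.1 CPM in vector cells (log2 fold change -1.09 by edgeR quasi-likelihood, adjusted p = 0.000995). IL11RA, which encodes the IL11-binding chain, averaged 4.15 CPM in BHLHE22 cells and 4.75 CPM in vector cells and was not called.

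None of the 3 JAK kinase genes listed here was called. JAK1 averaged 232 CPM in BHLHE22 cells and 213 CPM in vector cells, JAK2 47.1 CPM in BHLHE22 cells and 64.1 CPM in vector cells (adjusted p = 0.0510, edgeR quasi-likelihood), and TYK2 165 CPM in BHLHE22 cells and 187 CPM in vector cells. The adaptor genes GAB1 and SOS1, which link receptors to the MAPK pathway, fell by 0.77 and 0.43 on the log2 scale. ADAM17, a protease known to shed IL6R from the cell surface, had a log2 fold change of -0.35 (adjusted p = 0.0187, edgeR quasi-likelihood). That call ended with unscaled library sizes (adjusted p = 0.0933) and without BHLHE22 replicate 2 (0.0555) or 3 (0.0581) or vector replicate 1 (0.0585) or 2 (0.0565).

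Of the 11 tested inhibitor genes 3 were called higher and 2 lower, which is 27.3% higher and 45.5% called, near the 25.1% and 49.4% of all tested genes. SOCS1, an inhibitor of JAK kinases that is known to respond to interferon, rose to 1.72 ± 0.16 CPM in BHLHE22 cells, against 0.337 ± 0.126 CPM in vector cells (log2 fold change 2.33 by edgeR quasi-likelihood, adjusted p = 0.00102). SOCS1 had 24, 24 and 26 counts in BHLHE22 libraries, against 6, 3 and 5 counts in vector libraries. It passed the low-count filter through the BHLHE22 libraries, which biases it towards a difference, so its call is not read as a result. PTPN1, a phosphatase gene, rose by 0.52 on the log2 scale, and SOCS5 and SOCS7 fell by 0.77 and 0.58. CISH rose to 3.73 ± 0.40 CPM in BHLHE22 cells, against 1.96 ± 0.73 CPM in vector cells. The CISH call (adjusted p = 0.0261, edgeR quasi-likelihood) ended without BHLHE22 replicate 2 (0.0722) or 3 (0.0674) or vector replicate 2 (0.0583), and that of SOCS7 without BHLHE22 replicate 2 (0.0616).

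STAT2, a factor of interferon signalling, had 207 ± 6 CPM in BHLHE22 cells and 163 ± 17 CPM in vector cells, and its call ended without vector replicate 1 (adjusted p = 0.0573). STAT6 averaged 66.9 CPM in BHLHE22 cells and 63.2 CPM in vector cells and was not called.

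**Figure D4:**
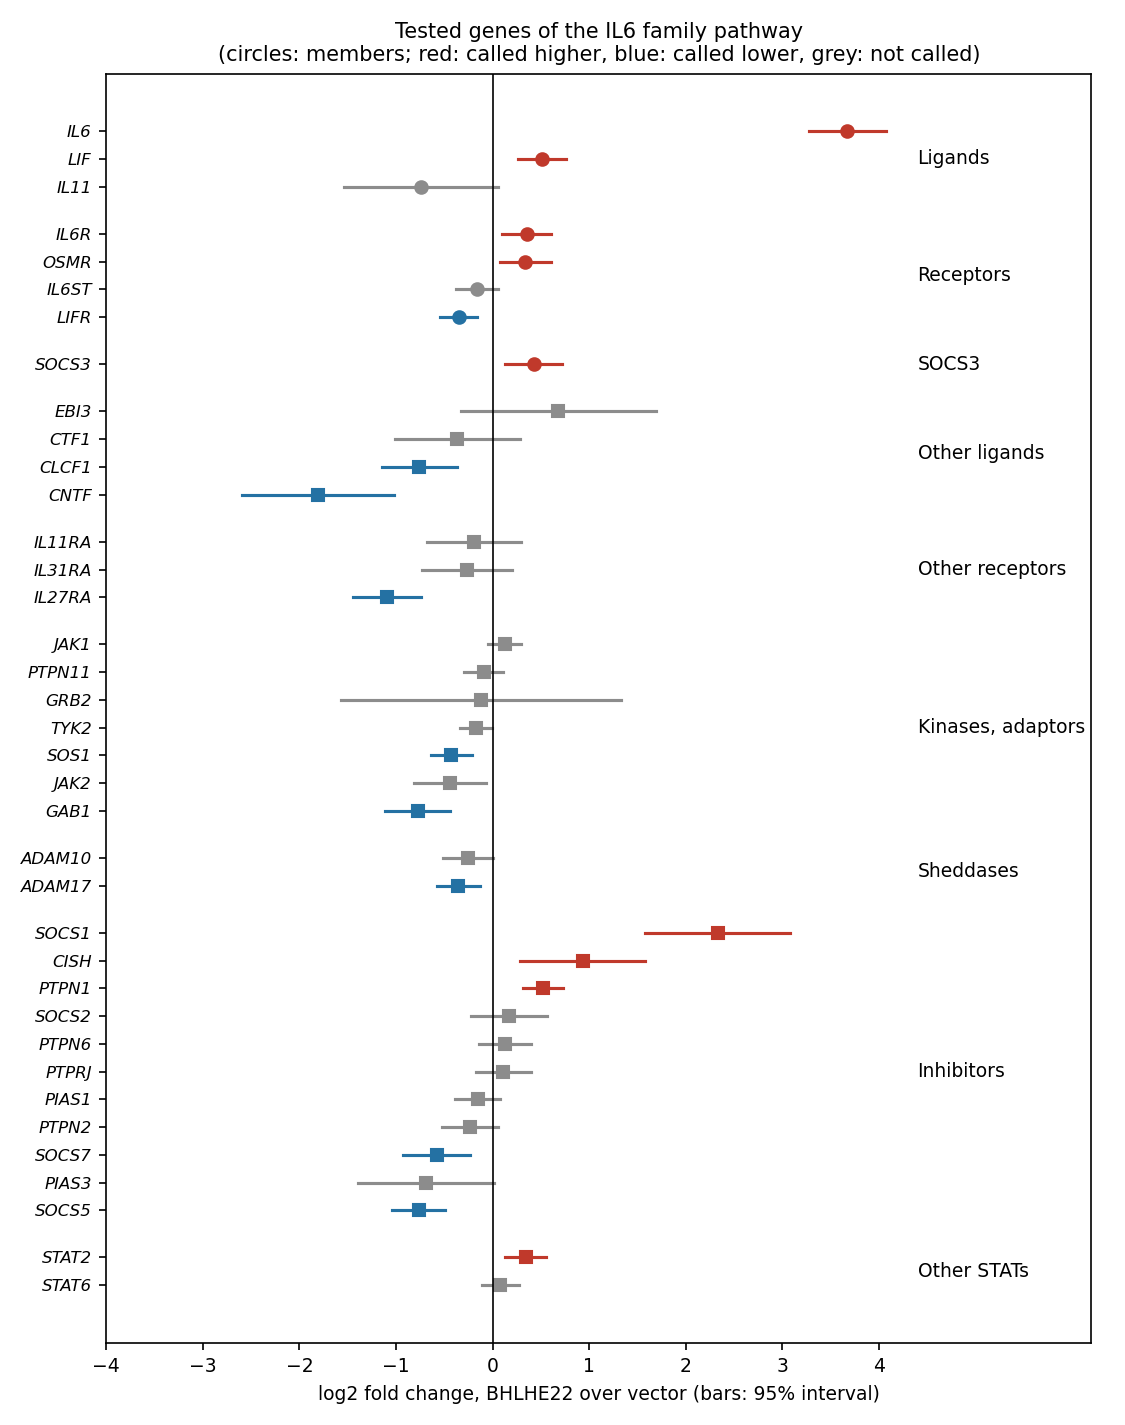
Log2 fold change, BHLHE22 over vector, of the 8 tested members (circles) and the tested other genes of the pathway (squares; 1 that is not reported here is not drawn), grouped by role from top to bottom; bars are 95% intervals and colours give the call at an adjusted p under 0.05. IL6 at 3.67 lies furthest to the right, followed by the inhibitor SOCS1 at 2.33. JAK1 lies at 0.12, TYK2 at -0.18 and JAK2 at -0.44.

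Genes known as STAT3 targets were called in both directions. Of 25 listed genes 22 were tested, and 5 were called higher, 5 lower and 12 neither, with a median log2 fold change of -0.02. That is 22.7% higher and 45.5% called, near the shares over all tested genes, so the count shows nothing particular to these genes. MYC, a growth regulator, rose to 103 ± 4.5 CPM in BHLHE22 cells, against 11.5 ± 1.4 CPM in vector cells, and BIRC5, which encodes survivin, to 68.4 ± 1.8 CPM in BHLHE22 cells, against 30.2 ± 5.7 CPM in vector cells. ICAM1, an adhesion receptor gene, and MCL1, a survival gene of the BCL2 family, rose by 0.56 and 0.29. BCL6, a repressor gene, had 47.8 ± 5.3 CPM in BHLHE22 cells and 541 ± 261 CPM in vector cells, and HIF1A, the hypoxia factor gene, had a log2 fold change of -0.71.

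CEBPD and IER3 had log2 fold changes of -1.51 and -1.30. The CEBPD call ended without BHLHE22 replicate 1 (adjusted p = 0.0535), 2 (0.0549) or 3 (0.0644) or without the low-count filter (0.0666). That of IER3 ended with limma-voom (0.0526), without BHLHE22 replicate 1 (0.0532), 2 (0.0863) or 3 (0.0956) and without vector replicate 1 (0.0527) or 2 (0.0504). The MCL1 call ended without BHLHE22 replicate 2 (0.0567). The number of falls was 2 without BHLHE22 replicate 2, 3 without BHLHE22 replicate 3 or vector replicate 1 or 2, and 8 without vector replicate 3. The number of rises was 3 without BHLHE22 replicate 2.

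Acute-phase genes, which IL6 is known to raise in liver, were mostly undetected. Of 16 genes 5 were tested, and 5 had no count in any library, among them CRP, FGA and FGB. The 5 tested genes, SAA1, SAA2, C3, LCN2 and CP, were all called higher in BHLHE22 cells, beside 25.1% of all tested genes. A gene that passed the filter only with the group where it is high is biased towards a difference. Its call is not read as a result. This holds for SAA2, with 1, 7 and 1 counts in vector libraries, and for SAA1, with 11, 9 and 14 counts there. C3, LCN2 and CP had at least 82 counts in every library, so it does not hold for them. C3, a complement gene, rose to 42.9 ± 2.1 CPM in BHLHE22 cells, against 15.8 ± 0.4 CPM in vector cells, and LCN2, a siderophore-binding protein gene, to 247 ± 16 CPM in BHLHE22 cells, against 124 ± 13 CPM in vector cells. SAA1, a serum amyloid gene, had 6.89 ± 0.29 CPM in BHLHE22 cells and 0.810 ± 0.188 CPM in vector cells (log2 fold change 3.08 by edgeR quasi-likelihood, adjusted p = 7.91e-05). SAA1 and its near-identical copy SAA2 can share reads, so how the counts divide between them is uncertain. The fitted log2 fold change of SAA2 was 3.65, and 5.09 without vector replicate 2. CP, the ceruloplasmin gene, was named because it completes the 5.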

How the data were processed

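The analysis used the whole-number read counts per gene that the authors deposited for 58302 Ensembl genes. The FPKM values deposited by the authors served for levels and ratios between genes. Per the submitters' processing notes, the tools were HISAT2 2.1.0, StringTie 1.3.4b, CASAVA 1.8 and edgeR and the builds GRCh38 and hg38. What each tool did, and whether strand was used, is not given there. Columns headed control were taken as the vector libraries, since the labels' protocol calls the blank-vector cells the control.

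After filterByExpr (15945 genes kept) and TMM scaling, groups were compared by the robust quasi-likelihood test of edgeR 4.0.16 (R 4.3.3) with no covariate. Benjamini-Hochberg adjustment ran over all tested genes, and a gene was called under 0.05. CPM are counts relative to the scaled library size. The SE is the log2 fold change divided by the root of F. The procedure was tested on simulated data. Positions follow the deposited table; 97.5% of the 58039 genes shared with GENCODE release 29 had the same position. Promoter sequences are from RefSeq (GRCh38.p14).

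The members, gene lists and tests were chosen with earlier results of these data known. Named genes are the 9 members and, in each list, up to 4 called genes per direction with the smallest p and a mean of at least 1 CPM, plus the 3 genes most like IL6 and SOCS3; others are given for their role in the pathway. STAT3 was too low for the likeness measure. Alternatives were the replicate block, other scalings, DESeq2 1.42.0, limma-voom (limma 3.58.1), other filters, a threshold of 0.01 and leaving out each library. Lengths, ratios, the STAT3 region and RICTOR were added after the data were seen. Values of 1 gene of the pathway and of 1 marker gene are not reported here.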

Additional observations from a re-analysis of the deposited data

How the results depend on the processing

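IL6, LIF, IL11 and IL6ST kept their direction and their side of the threshold in all 13 alternatives each; IL6 ranged from 3.56 to 3.82 (log2). LIFR kept its call except with unscaled library sizes (-0.20). The replicate numbers did not pair the libraries: deviations of same-numbered libraries correlated by -0.027 to 0.010 over genes. With the replicate number as a block, OSMR had a log2 fold change of 0.33 and was not called, and no other member's call changed. Leaving out single libraries gave log2 fold changes of 0.30 to 0.41 for IL6R, 0.24 to 0.43 for OSMR and 0.34 to 0.53 for SOCS3, with calls kept in 2, 1 and 2 of 6 cases. The STAT3 ratio of vector to BHLHE22 was 2.54 to 14.0 in these cases, the lowest being a bound against 3 counts. The calls among STAT3 targets ranged from 3 to 6 higher and from 2 to 8 lower when single libraries were left out. At a threshold of 0.01, 2480 genes were higher and 2482 lower, with 3 pathway genes higher and 3 STAT3 targets higher and 2 lower. Of the called members, only IL6 and LIF passed it. LIFR (adjusted p = 0.0103, edgeR quasi-likelihood), SOCS3 (0.0250), IL6R (0.0303) and OSMR (0.0370) did not. Depth limits IL11 and STAT3, with 53 and 1 counts over the BHLHE22 libraries.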
